A study of Mus musculus with 56 samples.

Results

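The active zone scaffold genes encode the large proteins that build the release site of the presynaptic terminal. The set holds 10 genes, Rims1, Rims2, Unc13a, Unc13c, Bsn, Pclo, Erc1, Erc2, Ppfia2 and Rimbp2, of 23600 genes named by a probe set with a single symbol. All their probe sets were taken, 56 of 79697 over 3 kinds of Affymetrix array, with no selection among these probe sets by value. The 10 genes themselves were chosen with earlier results of these data known. A probe set is the group of oligonucleotides that reads 1 transcript or part of it, and its intensity is given here on the log2 scale.

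The active zone is the patch of presynaptic membrane where synaptic vesicles dock, are made ready and fuse. RIM proteins (Rims1, Rims2) and RIM-binding protein 2 (Rimbp2) hold calcium channels next to docked vesicles, and Munc13 proteins (Unc13a, Unc13c) prime the vesicles for fusion. Bassoon (Bsn) and piccolo (Pclo) are giant scaffolds that gather vesicles at the site, ELKS and CAST (Erc1, Erc2) bind RIM, and liprin-α2 (Ppfia2) links the scaffold to receptor tyrosine phosphatases of the axon membrane.

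The cells were cortical neurons from C57BL6 mouse embryos of embryonic day 13 to 15, grown for 7 days in vitro. Most then received a drug or its vehicle, and RNA was taken after 24 or 72 h. Which of these times applies is given per array only for the 24 h topotecan arrays. The other cultures received an shRNA in place of a drug, and the titles of their arrays give no time. Some description texts of the labels name another experiment than the title of the same array, and the titles were followed. Topotecan and irinotecan are camptothecin derivatives that trap topoisomerase I on DNA, ICRF-193 inhibits topoisomerase II, and DRB blocks transcription elongation. On Mouse430_2 arrays, which read the 3' end of transcripts, there were 3 arrays of 300 nM topotecan against 3 of vehicle and 3 of 3 µM ICRF-193 against 3 of vehicle. On MoGene-1_1-st-v1 arrays, 3 vehicle arrays stood beside topotecan at 3, 30, 150, 300, 500 and 1000 nM, with 2 arrays at 300 nM and 1 at each other dose. On MoGene-2_1-st arrays, 6 arrays of 1 µM topotecan were set against 6 of vehicle, and 3 of 10 µM irinotecan, 1 of 24 h topotecan and 1 of 24 h topotecan followed by washout shared 2 vehicle arrays. The titles of the 24 h topotecan and washout arrays give no dose and no length of the washout. The same array held Top1 shRNA, Top2b shRNA and control shRNA (3 each), 100 µM DRB against its vehicle (1 each), and 100 µM H2O2 and 10 µM paraquat (1 each) against 2 vehicle arrays. The labels do not say that arrays of a group came from separate cultures, so p-values measure only the spread between these arrays. Their number limits the precision. In bulk RNA, fewer neurons and less RNA per neuron cannot be told apart.

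All the cultures showed a neuronal profile: 14 of 14 neuron markers lay above the dim limit (the 40th percentile of mean log2 intensity) in every group on the Mouse430_2 and MoGene-2_1-st arrays, and 12 of 12 on the MoGene-1_1-st-v1 arrays. Most astrocyte and fibroblast markers were above it too, and so were 3 to 7 oligodendrocyte and 1 to 7 microglia markers, depending on the group. Of the lists of 10 oligodendrocyte, 10 microglia and 8 fibroblast markers, at most 2 genes passed in any direction in any comparison. Few calls do not mean level values. Fibroblast markers had median changes of 1.32 with Top1 shRNA and 0.96 with Top2b shRNA. Of the members' probe sets, 19 of 25, 16 of 20 and 10 of 11 passed this limit on the Mouse430_2, MoGene-1_1-st-v1 and MoGene-2_1-st arrays, and all were tested. The 10 genes are long. Erc2 spans 856.3 kb, Unc13c 528.7 kb, Rims1 520.2 kb, Rims2 486.1 kb, Ppfia2 464.0 kb, Pclo 348.6 kb, Erc1 277.4 kb and Rimbp2 195.9 kb, while Bsn (94.4 kb) and Unc13a (47.6 kb) are under 100 kb. A change is a difference of mean log2 values, treated minus control, tested with limma and Benjamini-Hochberg adjustment over all single-symbol probe sets of that array.

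Topotecan at 1 µM lowered all 10 genes, Bsn by the smallest margin. Of 11 probe sets, 10 fell and 0 rose at an adjusted p under 0.05, where 12% of all probe sets fell, 51.7% of those of genes over 100 kb, and 17.2% rose. The median change of the members was -0.80, against 0.05 over all probe sets. The probe set that missed the threshold was the dimmer of 2 for Bsn.

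**Figure D1:**
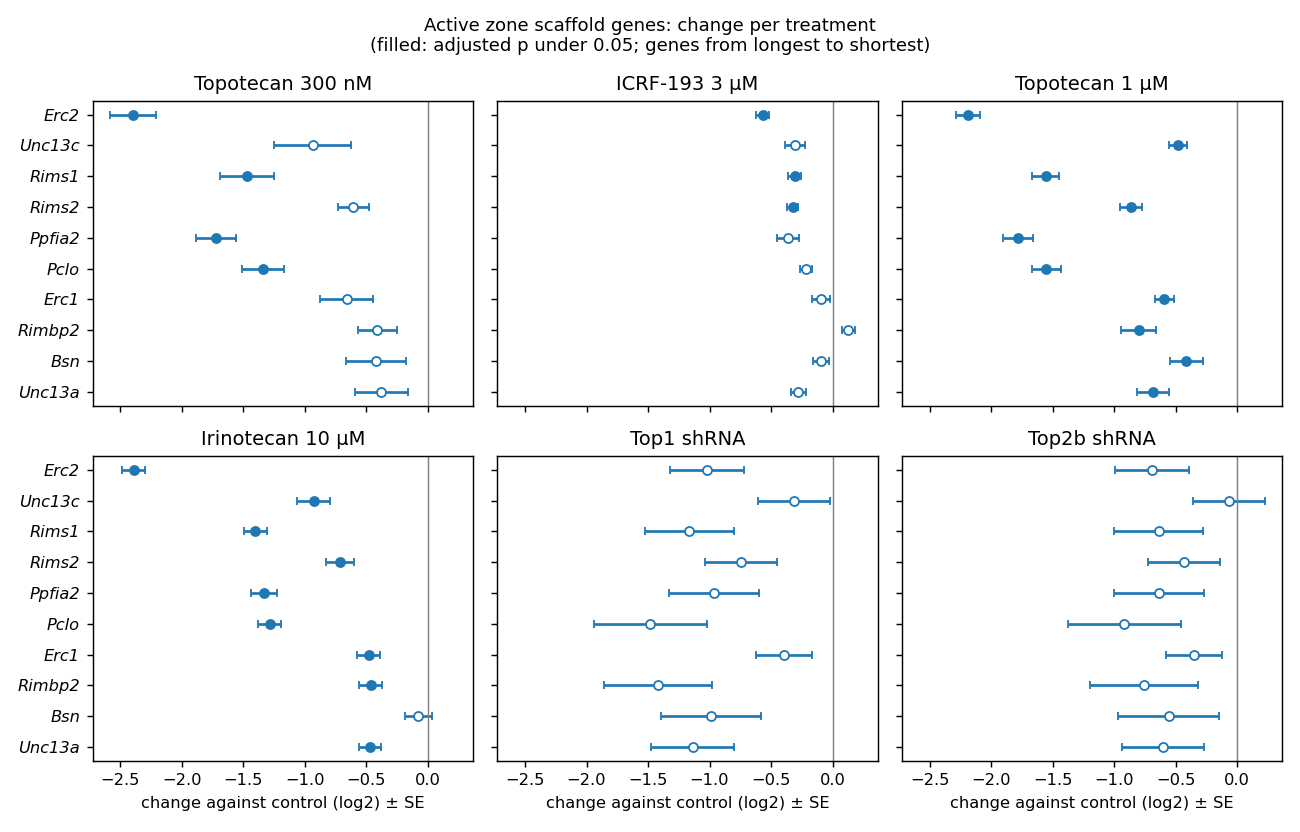
Change of each active zone gene (brightest probe set, log2 ± SE, x axis) in each replicated comparison, with genes from the longest at the top to the shortest. Filled points passed an adjusted p of 0.05. Erc2 has the most negative change under topotecan at 1 µM (-2.19), irinotecan (-2.39), topotecan at 300 nM (-2.40) and ICRF-193 (-0.57).

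Of the RIM genes, Rims1 ranged between 7.21 and 7.65 (median 7.50) on the 6 arrays of 1 µM topotecan and between 8.57 and 9.29 (median 9.08) on the 6 vehicle arrays. Every topotecan array lay below every vehicle array, and Rims1 fell by 1.56 (SE 0.11, adjusted p = 1.53e-07). Rims2 ranged between 6.85 and 7.27 (median 7.01) with topotecan and between 7.59 and 7.97 (median 7.94) with vehicle, again without overlap. Its change was -0.86 (adjusted p = 8.15e-06). Rimbp2, which connects RIM to calcium channels, spread more, at 7.50 to 8.05 (median 7.85) with topotecan and 7.97 to 8.91 (median 8.68) with vehicle. The groups overlapped, and the change was -0.80 (adjusted p = 0.000885).

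Both Munc13 genes fell as well. Unc13a, which codes for Munc13-1, ranged between 8.30 and 9.02 (median 8.69) with topotecan and between 8.89 and 9.55 (median 9.41) with vehicle. The groups overlapped, and the change of -0.69 had an adjusted p of 0.00132. Unc13c, which codes for Munc13-3, was close to the dim limit of 4.96 throughout, at 5.20 to 5.41 (median 5.27) with topotecan and 5.62 to 5.98 (median 5.72) with vehicle. The groups did not overlap, and Unc13c fell by 0.48 (adjusted p = 0.000303).

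Among the giant scaffolds, Pclo ranged between 7.65 and 8.14 (median 7.96) with topotecan and between 8.96 and 9.65 (median 9.60) with vehicle. It fell by 1.55 without overlap (SE 0.12, adjusted p = 3.37e-07). Bsn ranged between 6.82 and 7.59 (median 7.23) with topotecan and between 7.19 and 7.79 (median 7.70) with vehicle, with overlap. Its brighter probe set changed by -0.41 (adjusted p = 0.0317) and the dim one by -0.30 (adjusted p = 0.0641). With each of the 12 arrays left out in turn, the brighter one passed in 4 fits, with adjusted p-values of 0.00579 to 0.0685.

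Erc2 showed the largest change of the set. It ranged between 6.71 and 7.13 (median 6.91) with topotecan and between 8.72 and 9.23 (median 9.17) with vehicle, and fell by 2.19 (SE 0.10, adjusted p = 2.53e-09) or 4.56-fold. Erc1 ranged between 8.45 and 8.83 (median 8.57) with topotecan and between 9.06 and 9.34 (median 9.19) with vehicle, and fell by 0.59 (adjusted p = 6.28e-05). Liprin-α2 ranged between 7.88 and 8.55 (median 8.23) with topotecan and between 9.64 and 10.20 (median 10.10) with vehicle. Ppfia2 fell by 1.78 (SE 0.12, adjusted p = 9.27e-08) or 3.43-fold. None of these 3 genes overlapped between the groups, and in all 7 of 11 probe sets did not (6.8% of all probe sets lay wholly below vehicle).

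**Figure D2:**
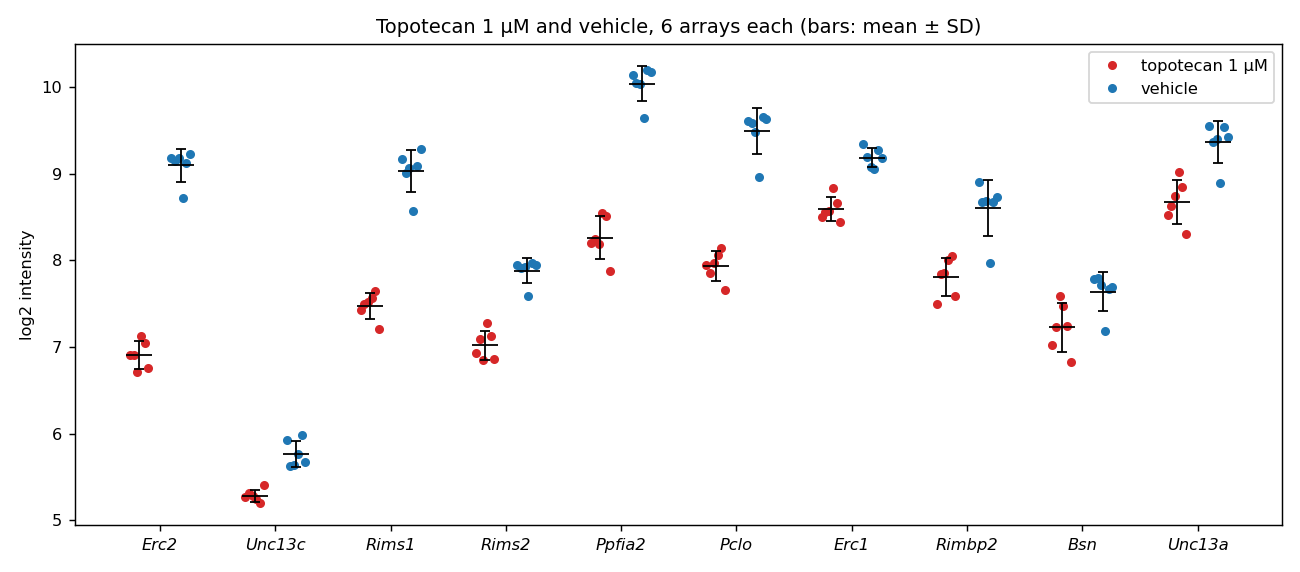
Log2 intensity of each active zone gene (brightest probe set) on every array of 1 µM topotecan (left of each pair) and vehicle (right), 6 arrays each, with bars for mean ± SD. Erc2 lies between 6.71 and 7.13 with topotecan and between 8.72 and 9.23 with vehicle, and 1 vehicle array is low for most genes.

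Vehicle array 4 was the lowest of its group for Pclo, at 8.96, and for Rimbp2, at 7.97. The mean over the 14 neuron markers ranged between 9.42 and 9.82 on the topotecan arrays and was 9.64 on vehicle array 4 and 9.98 to 10.08 on the other 5 vehicle arrays. Without it the changes were larger in size: -2.26 for Erc2, -0.93 for Rimbp2 and -0.50 for Bsn (adjusted p = 0.00579 for Bsn). Of 14 neuron markers, 7 fell and 1 rose at 1 µM, with a median of -0.22, and 9 of 12 astrocyte markers fell and 1 rose, with a median of -0.93 and summed intensities of 3367.1 to 3792.6 with topotecan and 5975.1 to 6523.5 with vehicle. Their part in the members' changes was not tested.

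In 3 of 4 pairs of paralogues the members changed by different amounts. Within each array the log2 value of 1 paralogue was subtracted from that of the other, and the groups were compared by a two-sided exact permutation test (4 pairs, chosen after the changes had been seen, p adjusted over the 4). Erc2 minus Erc1 was -1.69 ± 0.10 with 1 µM topotecan and -0.09 ± 0.16 with vehicle (SD, n = 6 each), a difference of -1.60 (exact permutation p = 0.00216, adjusted p = 0.00289). Pclo minus Bsn was 0.71 ± 0.21 with topotecan and 1.85 ± 0.09 with vehicle, a difference of -1.14. Rims1 minus Rims2 was 0.46 ± 0.14 with topotecan and 1.15 ± 0.12 with vehicle, a difference of -0.69. In each of these 3 pairs, 6 of 6 topotecan arrays lay below every vehicle array, and the exact permutation p was 0.00216, the smallest this design allows. Unc13c minus Unc13a was -3.39 ± 0.31 with topotecan and -3.60 ± 0.24 with vehicle, and this difference of 0.20 did not pass (exact permutation p = 0.24).

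The sequences before the start sites of Erc2, Erc1, Pclo and Bsn are shown because these are the 2 pairs whose members differed most in change. Each is the 250 bases before the RefSeq start in GRCm38.p6, on the gene's strand, 5′ to 3′, at chr14:27622157-27622406 (plus strand), chr6:119848151-119848400 (minus strand), chr5:14514668-14514917 (plus strand) and chr9:108190384-108190633 (minus strand). Capitals mark the GC box GGGCGG or its reverse complement CCGCCC.
Erc2: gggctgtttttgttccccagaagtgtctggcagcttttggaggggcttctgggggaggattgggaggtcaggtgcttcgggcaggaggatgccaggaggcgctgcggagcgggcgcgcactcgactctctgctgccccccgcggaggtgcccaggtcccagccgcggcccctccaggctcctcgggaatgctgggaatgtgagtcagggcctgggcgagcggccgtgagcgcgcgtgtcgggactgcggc
Erc1: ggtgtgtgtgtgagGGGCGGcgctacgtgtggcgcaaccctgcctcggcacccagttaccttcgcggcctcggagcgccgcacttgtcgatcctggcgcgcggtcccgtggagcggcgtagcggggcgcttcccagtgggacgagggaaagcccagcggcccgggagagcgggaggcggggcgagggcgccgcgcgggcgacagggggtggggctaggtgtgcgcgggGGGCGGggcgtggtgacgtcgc
Pclo: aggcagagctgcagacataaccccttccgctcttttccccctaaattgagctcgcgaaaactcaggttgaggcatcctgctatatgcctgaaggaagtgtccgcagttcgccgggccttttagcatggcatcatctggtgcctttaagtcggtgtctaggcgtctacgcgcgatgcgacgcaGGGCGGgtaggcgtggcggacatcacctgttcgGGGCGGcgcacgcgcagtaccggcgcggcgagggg
Bsn: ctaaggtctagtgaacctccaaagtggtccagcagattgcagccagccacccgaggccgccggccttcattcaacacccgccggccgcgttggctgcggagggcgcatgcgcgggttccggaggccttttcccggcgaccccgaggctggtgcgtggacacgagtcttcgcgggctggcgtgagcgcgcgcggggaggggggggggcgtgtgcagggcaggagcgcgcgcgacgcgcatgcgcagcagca
The Erc2 and Bsn windows hold 0 GC boxes, and those of Erc1 and Pclo hold 2 each. GC content is 69.6% for Erc2, 76.0% for Erc1, 61.2% for Pclo and 71.6% for Bsn, against a median of 52.4% over all 32851 windows of this length. Of the 9 members with a window in the table (all but Rims2), 6 hold a GC box, where 32.7% of all windows do. The letters TGACG on either strand are in 2 of the 9 and in 17.8% of all windows, and TATAAA on either strand is in 0 of the 9 and in 12.4% of all windows. A match of letters is a description of the window only.

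Irinotecan at 10 µM lowered 9 of the 10 genes. Of 11 probe sets, 9 fell and 0 rose, where 5.1% of all probe sets and 31.8% of those of genes over 100 kb fell and 4.47% of all rose. The median change was -0.71, against 0.03 over all probe sets. The 9 probe sets that fell were also the 9 whose 3 irinotecan arrays lay below both vehicle arrays, as 17.4% of all probe sets did.

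Erc2 read 7.10, 7.07 and 6.91 with irinotecan, against 9.42 and 9.41 with vehicle, and fell by 2.39 (SE 0.10, adjusted p = 0.00016). Rims1 read 7.44, 7.63 and 7.45 with irinotecan, against 8.90 and 8.92 with vehicle, and fell by 1.40 (adjusted p = 0.000559). For both genes the gap between the groups was many times the spread within them.
Ppfia2 read 8.80, 9.00 and 8.77 with irinotecan, against 10.23 and 10.15 with vehicle, a change of -1.33. Pclo read 8.39, 8.42 and 8.25 with irinotecan, against 9.63 and 9.66 with vehicle, a change of -1.29. Piccolo and liprin-α2 thus stood apart from their vehicle arrays by more than 1 log2 unit on every array, at adjusted p-values of 0.000692 and 0.000941.
Unc13c read 4.87, 4.71 and 4.65 with irinotecan, against 5.49 and 5.85 with vehicle, and fell by 0.93 (adjusted p = 0.00902). Rims2 read 6.91, 7.01 and 7.19 with irinotecan, against 7.81 and 7.69 with vehicle, and fell by 0.71 (adjusted p = 0.0139). All 3 irinotecan values of Unc13c were under the dim limit of 4.96 and both vehicle values above it.
Erc1 (-0.48), Unc13a (-0.47) and Rimbp2 (-0.46) had adjusted p-values of 0.0259, 0.0254 and 0.0303. Of the fits that left out 1 irinotecan array, Rimbp2 passed in 0 and Erc1 and Unc13a in at most 1 each. Bsn was nearly level. It read 7.81, 8.02 and 7.75 with irinotecan, against 7.98 and 7.89 with vehicle, with overlap and a change of -0.08 (adjusted p = 0.717). With either vehicle array left out, 5 and 4 probe sets fell, and Erc2 fell in each of the 5 fits that left out 1 array. Of 12 astrocyte markers 4 fell and of 14 neuron markers 1 fell and 1 rose, and the astrocyte markers summed to 3142.1 to 3440.0 with irinotecan and 3356.8 to 3877.4 with vehicle.

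Within arrays, Erc2 minus Erc1 was -1.50 ± 0.08 with irinotecan (n = 3) and 0.41 ± 0.05 with vehicle (n = 2), and Pclo minus Bsn was 0.50 ± 0.09 with irinotecan and 1.70 ± 0.09 with vehicle. In both pairs 3 of 3 irinotecan arrays lay below the vehicle arrays. The exact permutation p was 0.2 for each, and 3 arrays against 2 cannot reach 0.05.

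The irinotecan and topotecan doses differed, at 10 and 1 µM, and each was set against its own vehicle. The difference of changes, topotecan minus irinotecan, passed in 0 of 11 probe sets in limma (0.395% of all probe sets were lower and 0.506% higher). It was 0.21 for Erc2 (95% interval -0.15 to 0.56), -0.44 for Ppfia2 (-0.89 to -0.003) and 0.45 for Unc13c (0.14 to 0.76). The Ppfia2 and Unc13c intervals leave out 0 before adjustment, at adjusted p-values of 0.284 and 0.138.

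Topotecan at 300 nM lowered Erc2, Ppfia2, Rims1 and Pclo on the Mouse430_2 arrays, and Erc1 on 1 of its 4 probe sets. Of 25 probe sets, 6 fell and 0 rose, where 1.93% of all probe sets and 10.4% of those of genes over 100 kb fell and 0.709% of all rose. The members' median was -0.61, against 0.04 over all probe sets. In 16 of the 25 every topotecan array lay below every vehicle array, as in 9.14% of all probe sets.

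Erc2 read 10.15, 9.82 and 9.66 with topotecan, against 12.04, 12.18 and 12.61 with vehicle, and fell by 2.40 (SE 0.19, adjusted p = 0.00211). Ppfia2 read 9.02, 8.82 and 8.64 with topotecan, against 10.31, 10.49 and 10.84 with vehicle, and fell by 1.72 on its brighter probe set (SE 0.17, adjusted p = 0.00419). CAST and liprin-α2 again had the largest changes, with gaps of over 1 log2 unit between the groups.
Rims1 read 9.96, 9.80 and 9.54 with topotecan, against 10.82, 11.24 and 11.65 with vehicle. Its 2 probe sets fell by 1.47 and 1.36 (adjusted p = 0.0194 and 0.0211). Pclo read 10.20, 10.18 and 10.17 with topotecan, against 11.15, 11.80 and 11.62 with vehicle, and fell by 1.34 (adjusted p = 0.0111). The other 2 Pclo probe sets changed by -1.13 and -1.22 with wider spread and did not pass.
Erc1 read 9.62, 9.60 and 9.13 with topotecan, against 9.87, 9.92 and 10.55 with vehicle, on its brightest probe set, which changed by -0.66 and did not pass (adjusted p = 0.187). Another of its 4 probe sets fell by 0.79 (adjusted p = 0.037), at 8.83, 8.95 and 8.69 with topotecan, against 9.36, 9.67 and 9.81 with vehicle, and passed in 1 of the 6 fits that left out 1 array (adjusted p = 0.0252 to 0.134). Of the others, Rims2 read 9.63, 9.45 and 9.28 with topotecan, against 9.98, 10.05 and 10.15 with vehicle, without overlap (change -0.61, adjusted p = 0.0504). Unc13c changed by -0.94, Bsn by -0.42, Rimbp2 by -0.41 and Unc13a by -0.38 on their brightest probe sets, at adjusted p-values of 0.197 to 0.465. The vehicle arrays spread widely for these genes: Bsn read 10.11, 10.12 and 9.83 with topotecan, against 9.94, 10.41 and 10.98 with vehicle. The other Bsn probe sets went up, by 0.13 and 0.18. The other Unc13c probe sets changed by -0.77 and -0.29, and the dimmer Ppfia2 one by -0.24. The other Rims2 probe sets changed by -0.56 to 0.08. None of these passed. With 1 array left out at a time, between 2 and 6 probe sets fell, and Erc2 fell in each of the 6 fits. The fewest, 2, came without topotecan array 2, and 3 fell without topotecan array 3 or vehicle array 2. Of 12 astrocyte markers 6 fell, with summed intensities of 25522.5 to 33091.1 with topotecan and 46734.8 to 56378.8 with vehicle, while neuron markers had a median change of 0.17. The part of the astrocyte markers in the members' changes was not tested.

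ICRF-193 at 3 µM lowered Erc2, Rims2 on 3 of its 5 probe sets and Rims1 on 1 of its 2, by 0.25 to 0.57. It also lowered Erc1 on 1 of its 4 probe sets. Of 25 probe sets, 6 fell and 0 rose, where 2.83% of all probe sets fell, 8.9% of those of genes over 100 kb, and 2.15% rose. The median was -0.21, against 0.02 over all probe sets. In 15 of the 25 the ICRF-193 arrays lay wholly below vehicle, as in 13.4% of all probe sets.

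Erc2 read 11.81, 11.77 and 11.73 with ICRF-193, against 12.40, 12.33 and 12.28 with vehicle, and fell by 0.57 (SE 0.05, adjusted p = 0.00228). Rims2 read 9.98, 10.02 and 10.03 with ICRF-193, against 10.33, 10.36 and 10.30 with vehicle. Of its probe sets 3 fell, by 0.32, 0.37 and 0.25 (adjusted p = 0.0116, 0.0102 and 0.0425). These passed in 4, 6 and 0 of the 6 fits that left out 1 array. The other Rims2 probe sets changed by -0.10 and 0.08 and did not pass. The arrays within each group lay closer together than those of the 300 nM topotecan experiment. On the brightest probe set neither Erc2 nor Rims2 overlapped between the groups.
Rims1 read 10.67, 10.60 and 10.54 with ICRF-193, against 10.95, 10.89 and 10.90 with vehicle, and fell by 0.31 (adjusted p = 0.0219). That probe set passed in 2 of the 6 fits that left out 1 array (adjusted p = 0.0377 to 0.0879). The other Rims1 probe set changed by -0.20 and did not pass. Erc1 read 9.83, 9.79 and 9.69 with ICRF-193, against 9.98, 9.87 and 9.74 with vehicle, on its brightest probe set, with overlap and a change of -0.10 (adjusted p = 0.488). A dimmer Erc1 probe set read 7.23, 7.13 and 6.99 with ICRF-193, against 7.59, 7.38 and 7.46 with vehicle, and fell by 0.36 (adjusted p = 0.0475), but passed in 0 of the 6 fits that left out 1 array (adjusted p = 0.0586 to 0.141).
Ppfia2 (-0.36), Pclo (-0.21) and Unc13a (-0.28) had adjusted p-values of 0.0665, 0.0533 and 0.0504, and Unc13c (-0.30) of 0.0806. Bsn read 9.48, 9.49 and 9.35 with ICRF-193, against 9.62, 9.47 and 9.50 with vehicle, with overlap and a change of -0.09 (adjusted p = 0.44). Rimbp2 read 9.02, 9.02 and 8.89 with ICRF-193, against 8.87, 8.79 and 8.88 with vehicle. Each ICRF-193 array was above each vehicle array for Rimbp2, and the change of 0.13 did not pass (adjusted p = 0.235). Arrays of the same replicate number deviated together here, and with the replicate as a block 8 probe sets fell: a dimmer one of Pclo (-0.47, adjusted p = 0.0158), Unc13a (-0.28, adjusted p = 0.0372) and Unc13c (-0.30, adjusted p = 0.0381) passed as well, and the third Rims2 probe set no longer did (adjusted p = 0.0515). With 1 array left out at a time, between 2 and 10 fell, 2 without ICRF-193 array 2 or vehicle array 1, 3 without ICRF-193 array 3 or vehicle array 2 and 10 without vehicle array 3. Astrocyte markers fell in 7 of 12, with summed intensities of 30309.5 to 33569.8 with ICRF-193 and 39653.9 to 43455.0 with vehicle, and their part was not tested.

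The difference of these changes was tested directly, 300 nM topotecan minus ICRF-193, each against its own vehicle arrays, which were apparently normalized separately. It passed in 5 of 25 probe sets, all with the more negative change under topotecan (1.04% of all probe sets were more negative and 0.395% more positive). The differences were -1.83 for Erc2 (adjusted p = 0.00215), -1.36 for Ppfia2 (adjusted p = 0.00727), -1.16 for both Rims1 probe sets (adjusted p = 0.0384 and 0.0348) and -1.13 for Pclo (adjusted p = 0.0129). With replicate blocks 0 passed, the nearest being Erc2 (adjusted p = 0.0528). With 1 array left out at a time, between 3 and 7 passed. It was 3 without any of the 6 ICRF-193 experiment arrays, topotecan array 2 or 3, or vehicle array 2 of topotecan, and Erc2 passed in each of the 12 fits.

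Along the topotecan dose series, Erc2 was the member with a trend over the ranked doses. It read 10.15, 10.21 and 10.22 with vehicle, 10.23 at 3 nM, 10.19 at 30 nM, 9.75 at 150 nM, 9.56 and 9.51 at 300 nM, 9.22 at 500 nM and 8.37 at 1000 nM. The values at 3 and 30 nM were at the vehicle level and each dose above that was lower than the one before. The slope was -0.25 per dose rank (SE 0.04, limma adjusted p = 0.0125), and 1 of 20 member probe sets passed, where 0.872% of all probe sets fell and 0.5% rose. Erc2 passed in each of the 10 fits that left out 1 array. On log10(dose + 1) in place of the rank 0 of 20 passed, Erc2 included (adjusted p = 0.0801).
Rims1 read 9.73, 9.73 and 10.20 with vehicle, 10.07 at 3 nM, 10.17 at 30 nM, 9.73 at 150 nM, 9.61 and 9.66 at 300 nM, 9.45 at 500 nM and 8.50 at 1000 nM (slope -0.16, adjusted p = 0.15). Ppfia2 read 10.31, 10.36 and 10.61 with vehicle, 10.51 at 3 nM, 10.56 at 30 nM, 10.31 at 150 nM, 10.18 on both arrays at 300 nM, 10.02 at 500 nM and 9.12 at 1000 nM (slope -0.15, adjusted p = 0.117). Both genes were lowest at 1000 nM and highest on vehicle array 3.
Pclo read 10.18, 10.25 and 10.73 with vehicle, 10.58 at 3 nM, 10.53 at 30 nM, 10.39 at 150 nM, 10.38 and 10.30 at 300 nM, 10.19 at 500 nM and 9.35 at 1000 nM. Bsn read 8.48, 8.48 and 8.82 with vehicle, 8.73 at 3 nM, 8.79 at 30 nM, 8.82 at 150 nM, 8.86 and 8.84 at 300 nM, 8.94 at 500 nM and 8.41 at 1000 nM. Only the 1000 nM array was below all vehicle arrays, for Pclo as for Bsn. The slopes per rank of the brightest probe sets were -0.10 for Pclo, -0.06 for Rims2, -0.03 for Unc13a, -0.02 for Unc13c and Erc1, -0.01 for Rimbp2 and 0.02 for Bsn (adjusted p = 0.31 to 0.93).
At 1000 nM, 7 of 20 probe sets were at least 1.5-fold below the vehicle mean (4.38% of all probe sets were), with Erc2 at -1.82, Rims1 at -1.38, Ppfia2 at -1.31 and Pclo at -1.04. At 500 nM Erc2 alone was that much lower (-0.97, where 7.19% of all probe sets were), as on both 300 nM arrays (7.16 and 6.44%). At 3, 30 and 150 nM 0 of 20 were that much lower (5.37, 6.15 and 6.83% of all probe sets). Of the higher side, 1 member probe set passed 1.5-fold at 3 nM (1.62% of all probe sets) and 0 at 30, 150, 300 (both arrays), 500 and 1000 nM (1.56, 1.69, 2.61, 1.48, 2.67 and 3.9%). On both 300 nM arrays, 3 of 20 lay below all 3 vehicle arrays (11.4% of all probe sets).

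**Figure D3:**
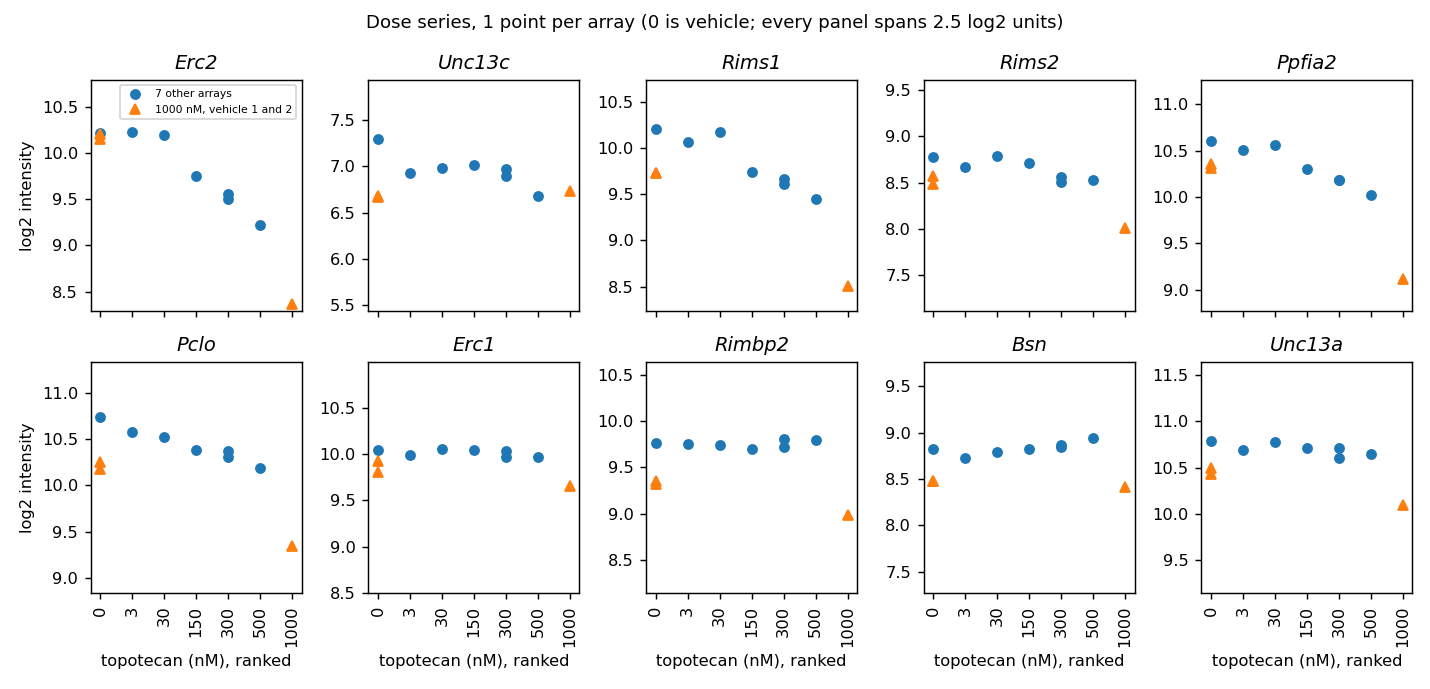
Log2 intensity of the active zone genes (1 panel per gene, brightest probe set) against ranked topotecan dose in nM, with 0 for vehicle and 1 point per array. Triangles mark the 1000 nM array and vehicle arrays 1 and 2. Erc2 steps down between 30 nM (10.19) and 1000 nM (8.37), and Bsn stays between 8.41 and 8.94.

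The first principal component of the series over genes up to 100 kb, with 74.7% of the variance, set the 1000 nM array (0.38) and vehicle arrays 1 and 2 (0.52 and 0.54) apart from the other 7 arrays (-0.24 to -0.15). This split comes from the data and not from a label. Astrocyte markers moved with this split, with a summed intensity of 13472.6 at 1000 nM, 5637.2 to 8405.7 at the other doses, and 6901.6 to 23281.3 on vehicle arrays. Their part in the dose trend was not tested. With a term for the split, 8 probe sets passed: Erc2 (-0.26, adjusted p = 8.33e-05), Rims1 (-0.18), Ppfia2 (-0.17), Pclo (-0.12), Rims2 (-0.07), both of Unc13a (-0.08 and -0.04) and 1 of Erc1 (-0.06, adjusted p = 0.0464). The Bsn, Rimbp2 and Unc13c probe sets did not pass in that fit either. The share of all probe sets that passed in that fit is not given here, so the 8 stand without a background.

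After 24 h of topotecan on a single array, all 11 probe sets were below the mean of the 2 vehicle arrays, and 5 were at least 1.5-fold lower (4.18% of all probe sets were) and 0 that much higher (3.93%). There was 1 array per treatment, so these are differences between arrays with no test. Erc2 read 7.47 at 24 h, against 9.42 and 9.41 with vehicle. Rims1 read 7.62 at 24 h, against 8.90 and 8.92 with vehicle, and Ppfia2 read 8.82 at 24 h, against 10.23 and 10.15 with vehicle. Pclo (-1.23) and Rims2 (-0.60) were also past 1.5-fold, with Erc1 at -0.56, Unc13c at -0.40, Unc13a at -0.28 and Rimbp2 at -0.24, whereas Bsn read 7.69 at 24 h, against 7.98 and 7.89 with vehicle.
The array of 24 h topotecan followed by washout was close to vehicle, with differences of -0.38 to 0.06 and 0 of 11 past 1.5-fold in either direction (0.723% of all probe sets were that much lower and 1.11% higher). Erc2 read 9.17 after washout, 7.47 without it, and 9.42 and 9.41 with vehicle. Rims1 read 8.84 after washout and Pclo 9.50, both slightly under their vehicle arrays.

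Knockdown came with lower values of the members but no call. The knocked-down genes were checked first. Top1 read 7.62, 8.39 and 8.29 with Top1 shRNA, 8.88, 8.61 and 8.83 with Top2b shRNA, and 8.98, 8.46 and 8.55 with control shRNA, a change of -0.57 with Top1 shRNA (adjusted p = 0.41). Top2b read 8.62, 6.87 and 6.80 with Top2b shRNA, 8.25, 8.76 and 8.60 with Top1 shRNA, and 9.30, 8.39 and 8.17 with control shRNA, a change of -1.19 with Top2b shRNA (adjusted p = 0.463). Array 1 of each shRNA group had a mean intensity of 177.6 to 180.3, against 137.8 to 143.1 for arrays 2 and 3. Separate normalization was inferred from this and is not given by the labels. Within each number the targeted gene was lower than in control shRNA, for Top1 in number 2 only slightly (8.39, against 8.46). With Top1 shRNA, Top2b was also lower than control in number 1 (8.25, against 9.30) and higher in numbers 2 and 3.

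Of 11 member probe sets, 0 fell and 0 rose with Top1 shRNA in limma (0.961% of all probe sets fell and 1.55% rose, and 1879 fell at an unadjusted p under 0.05). With Top2b shRNA 0 fell and 0 rose (0.0% of all probe sets in each direction, 1050 lower at an unadjusted p under 0.05). All 11 changes were negative in both. Pclo read 8.95, 7.08 and 7.94 with Top1 shRNA, 8.12, 8.61 and 8.94 with Top2b shRNA, and 9.98, 9.27 and 9.17 with control shRNA. Its changes were -1.48 (adjusted p = 0.132) and -0.92 (adjusted p = 0.625), and neither group reached the lowest control value.
Erc2 read 7.79, 7.12 and 8.22 with Top1 shRNA, 7.92, 8.01 and 8.18 with Top2b shRNA, and 8.54, 8.88 and 8.76 with control shRNA. The changes were -1.02 (adjusted p = 0.114) and -0.69 (adjusted p = 0.499). Rimbp2 read 7.80, 6.86 and 7.57 with Top1 shRNA, 7.05, 8.48 and 8.67 with Top2b shRNA, and 8.50, 8.99 and 8.99 with control shRNA, with changes of -1.42 and -0.76. Rimbp2 and Erc2 were below all control arrays on all 3 arrays of Top1 shRNA. Ppfia2 read 9.63, 8.31 and 9.33 with Top1 shRNA, 9.00, 9.63 and 9.64 with Top2b shRNA, and 10.32, 9.84 and 10.01 with control shRNA, with changes of -0.96 (adjusted p = 0.222) and -0.63 (adjusted p = 0.743). Bsn read 7.55, 5.97 and 6.13 with Top1 shRNA, 6.90, 6.71 and 7.34 with Top2b shRNA, and 7.83, 7.38 and 7.40 with control shRNA, with changes of -0.99 (adjusted p = 0.278) and -0.56 (adjusted p = 0.893). Liprin-α2 was below all control arrays with either shRNA, whereas bassoon overlapped with control under Top1 shRNA.
The changes with Top1 and Top2b shRNA were -1.16 and -0.64 for Rims1, -1.14 and -0.60 for Unc13a, -0.74 and -0.43 for Rims2, -0.40 and -0.35 for Erc1 and -0.31 and -0.07 for Unc13c, and none passed (adjusted p = 0.115 to 0.876 with Top1 shRNA and 0.718 to 1.0 with Top2b shRNA). In all, 8 of 11 probe sets lay wholly below control with Top1 shRNA (9.01% of all probe sets) and 7 with Top2b shRNA (9.49%).
With a term for array 1 against arrays 2 and 3, 6 probe sets fell with Top1 shRNA. They were Rims1, Rims2, Erc2, Pclo, Rimbp2 and Unc13a, by 0.74 to 1.48 (adjusted p = 0.0172 to 0.0337). Without Top1 shRNA array 1, 3 passed. The shares of all probe sets that fell in these other fits are not given here, so their counts stand without a background. The test of Top1 minus Top2b shRNA called 0 of 11 in limma (0.0% of all probe sets, 368 lower and 332 higher at an unadjusted p under 0.05). Neuron markers moved with the members. The mean over the 14 markers was 8.63 to 9.48 with Top1 shRNA, 9.11 to 9.61 with Top2b shRNA and 9.96 to 10.10 with control shRNA, while the 8 fibroblast markers averaged 7.40 to 8.25, 7.07 to 7.52 and 5.89 to 6.70 in the same groups. Their median changes were -0.91 and -0.61 for neuron markers and 1.32 and 0.96 for fibroblast markers, and their part in the members' changes was not tested.

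DRB gave another order of the genes. On its single array 4 of 11 probe sets were at least 1.5-fold lower and 0 were that much higher (22.6% of all probe sets were lower and 23.9% higher). Rimbp2 read 7.93 with DRB, against 9.59 with vehicle, the largest difference (-1.66). Erc2 read 8.99 with DRB, against 9.96 with vehicle, and Unc13a read 9.65 with DRB, against 10.42 with vehicle. Pclo read 9.47 with DRB, against 10.06 with vehicle. Ppfia2 went the other way, at 10.94 with DRB, against 10.58 with vehicle. The differences of the others were -0.42 for Bsn, -0.26 for Erc1, -0.17 for Unc13c, -0.14 for Rims1 and 0.17 for Rims2. Neuron markers averaged 10.17 with DRB, against 10.51 with vehicle, and the astrocyte markers summed to 2059.5 with DRB, against 6856.2 with vehicle.

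With H2O2 and paraquat the result hung on which vehicle array was used. Vehicle array 1 was below vehicle array 2 for 11 of 11 probe sets (differences of -2.28 to -0.25). Rimbp2 read 8.84 with H2O2 and 9.24 with paraquat, against 7.27 on vehicle array 1 and 9.55 on vehicle array 2. The members' median difference with H2O2 was 0.74 against vehicle array 1 and -0.42 against vehicle array 2. With paraquat it was 0.94 against array 1 and -0.21 against array 2. Against the mean of both, 2 of 11 were at least 1.5-fold higher with each agent (5.68% of all probe sets with H2O2, 9.22% with paraquat) and 0 were that much lower (6.87 and 11%). They were Ppfia2 (0.75) and the dim Bsn probe set (0.74) with H2O2, and Rimbp2 (0.83) and the same Bsn probe set (0.74) with paraquat. The brightest probe sets of the other 9 genes differed by -0.11 to 0.52 with H2O2 and by 0.11 to 0.53 with paraquat. Vehicle array 1 also had lower neuron markers (mean 9.39, against 10.53 on array 2) and higher fibroblast markers (8.30, against 7.11).

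**Figure D4:**
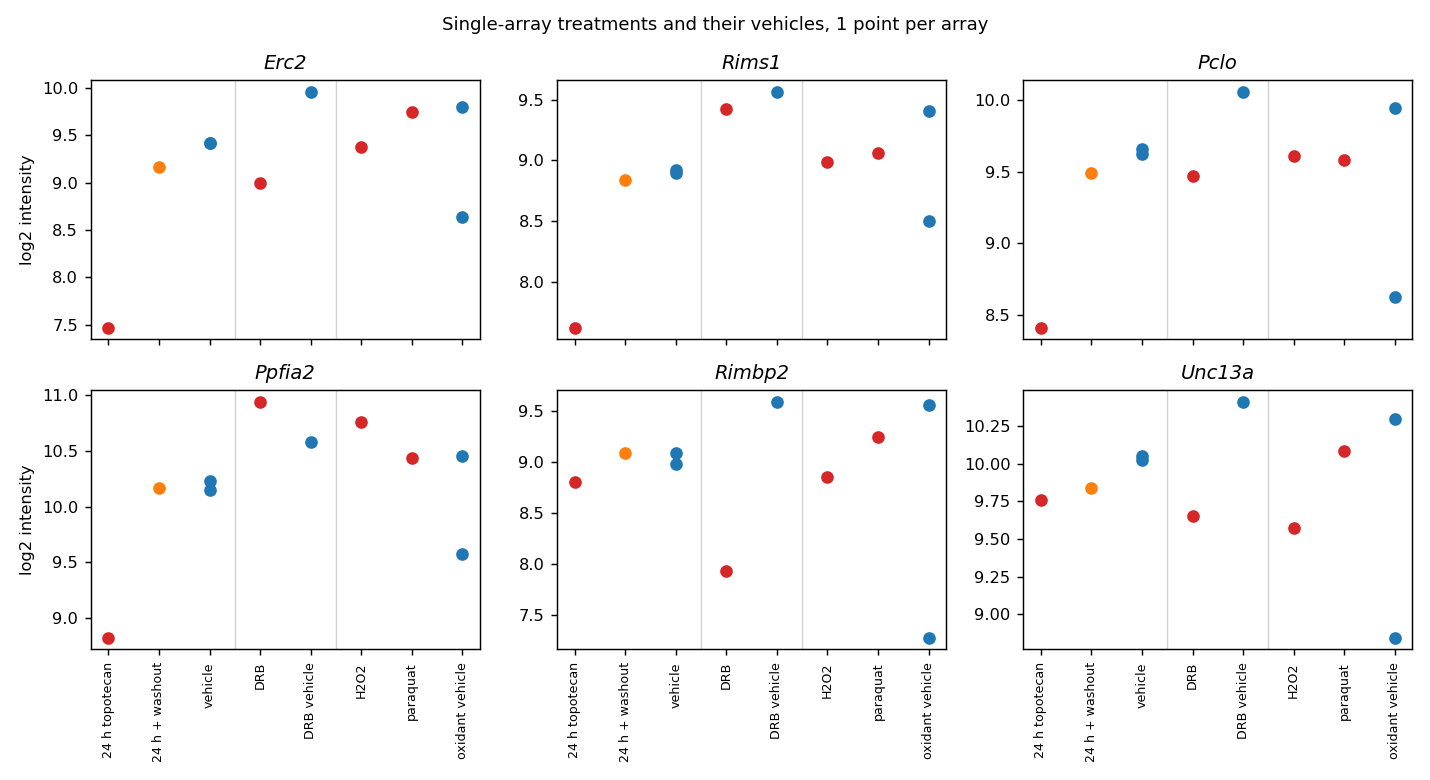
Log2 intensity of the active zone genes on the arrays of treatments with 1 array each, with their vehicle arrays to the right of each, 1 point per array. Erc2 reads 7.47 after 24 h of topotecan, 9.17 after washout and 9.42 and 9.41 with vehicle, and vehicle array 1 of the H2O2 and paraquat experiment is low in every panel.

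Within the set, the longer genes had the more negative changes under the topoisomerase inhibitors. Spearman's rho between annotated length and change over the 10 genes was -0.79 at 300 nM topotecan, -0.74 with ICRF-193, -0.53 at 1 µM topotecan and -0.83 with irinotecan, and 0.27 with Top1 shRNA and 0.03 with Top2b shRNA. These describe genes on the same arrays, which are not independent replicates, and no p is given. Unc13c, at 528.7 kb, went against the order at 1 µM topotecan, with -0.48 where Rims1, at 520.2 kb, had -1.56, and Rimbp2, at 195.9 kb, had -0.80 where Erc1, at 277.4 kb, had -0.59.

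**Figure D5:**
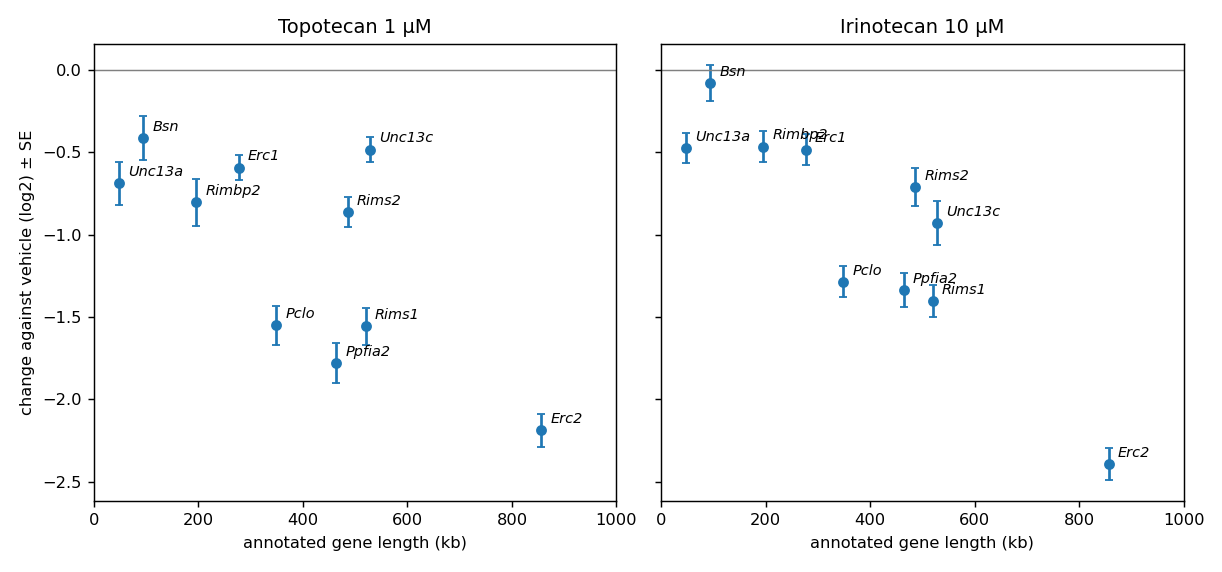
Change against vehicle (log2 ± SE) of the 10 active zone genes against annotated gene length in kb, at 1 µM topotecan and 10 µM irinotecan. Erc2, the longest at 856.3 kb, has the most negative change in both, and Bsn (94.4 kb) the one nearest 0.

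Over the 34 MoGene-2_1-st arrays, with each array taken relative to the mean of its own control group, the members varied together. The 45 pairs had a median Pearson r of 0.757 (0.222 to 0.97), highest for Rims1 with Ppfia2 and lowest for Unc13c with Bsn, and the arrays share their treatments and culture makeup. The gene most like Erc2 over these arrays was Negr1 (r = 0.982), like Rims1 Nell2 (r = 0.986), like Ppfia2 Rgs7 (r = 0.985) and like Pclo Ryr3 (r = 0.981). For Rims2 it was Grin2b (r = 0.964), for Erc1 Tmem164 (r = 0.944), for Bsn Fbxo41 (r = 0.958) and for Unc13c Gpc5 (r = 0.871). Gas7 headed the list of both Unc13a (r = 0.971) and Rimbp2 (r = 0.966).

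Of 30 genes of binding partners of the scaffold, 27 were on the array, and 17 fell and 0 rose at 1 µM topotecan. That was 17 of 31 probe sets, with a median of -0.44, where 12% of all probe sets fell. Ptprd, a receptor phosphatase that binds liprin-α, fell by 2.18 (adjusted p = 2.6e-09). Syt1, the calcium sensor of release, changed by -2.02 and the calcium channel gene Cacna1e by -1.27, both past the threshold. With irinotecan 13 genes fell and 0 rose, 13 of 31 probe sets (5.1% of all), with a median of -0.35, Ptprd at -1.90, Syt1 at -1.61 and Cacna1a at -1.08. At 300 nM topotecan 5 genes fell, with 14 of 88 probe sets (1.93% of all) and a median of -0.09, including Ptprd (-3.64) and Cask (-1.18). With ICRF-193 6 genes fell and 1 rose, with 15 of 88 probe sets lower (2.83% of all) and a median of -0.07. Ptprd changed by -1.36 and Lin7b, a scaffold adaptor whose gene is 2.7 kb long, by -0.45. With Top1 shRNA Lin7a, its paralogue, fell (-1.33, adjusted p = 0.0462), 1 of 31 probe sets (0.961% of all). With Top2b shRNA 0 did (0.0% of all), and the medians were -0.77 and -0.44. Along the dose series 2 of 25 genes fell, Ptprd (-0.22 per rank) and Cask (-0.08 per rank), 2 of 26 probe sets (0.872% of all). Of the 11 other paralogues of the members, 1 fell (Rims4, -0.42) and 1 rose (Ppfibp1, 0.33) at 1 µM topotecan. That was 1 of 11 probe sets each way, where 12% of all probe sets fell and 17.2% rose. With ICRF-193 1 fell (Ppfia3, -0.35) and 1 rose (Ppfia4, 0.29). That was 1 of 19 probe sets each way, where 2.83% of all fell and 2.15% rose. Of these paralogues 0 passed with irinotecan, 300 nM topotecan, either shRNA or along the dose series. Their median changes were -0.09 at 1 µM topotecan, 0.02 with irinotecan, 0.07 at 300 nM topotecan, 0.06 with ICRF-193, -0.49 with Top1 shRNA and -0.41 with Top2b shRNA.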

How the data were processed

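Total RNA of 56 samples was measured on Affymetrix arrays. The intensities were deposited by the authors on a linear scale, 1 value per probe set and array, after RMA (background correction, normalization and summarisation of probes) in Affymetrix Expression Console, per the submitters' processing notes. The mean array intensity lay at distinct levels, from which separate normalization of sets of arrays was inferred. No label names such sets. Each treated group was therefore set against controls of its own experiment. The differences of changes between drugs span 2 experiments. The shRNA fit holds array 1 together with arrays 2 and 3, which lay at another level. Fits took log2 of the deposited intensity with no pseudocount and no further normalization. Log2 values were assumed when the tests were planned, and the log2 step replaced that. 0 columns of array values were left unused.

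Genes were named through the platform annotation, and probe sets with several symbols or none were left out. Lengths, and promoters of 9 members, came from RefSeq (GRCm38.p6). limma 3.58.1 in R 4.3.3 (lmFit, eBayes) was fitted on all probe sets with 1 symbol, with Benjamini-Hochberg adjustment over all of them and a threshold of 0.05. The shRNA groups shared 1 fit, and the dose trend used the rank of the dose. Single arrays were described by a 1.5-fold difference from the mean of their controls. Paralogue differences used exact permutation tests in SciPy 1.17.1. Steps were tested on simulated data: of changes of 1 log2 unit, 96% were recovered at 1 µM topotecan, 93% with ICRF-193, 51% at 300 nM topotecan, 44% with irinotecan, 75% along the dose series and 0% with either shRNA. The simulated noise was independent and took the spread within groups, which for shRNA included the offset of array 1.

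The 10 members, the marker, paralogue and partner lists and the tests were chosen with earlier results of these data known. In the replicated comparisons with controls and along the dose series all 10 members are named, by their brightest probe set first, and arrays without replicates and differences of changes are given by the members past the threshold or by their range. They stand with up to 4 genes of the paralogue and partner lists and the most similar gene of each member. Equal replicate numbers in the titles were checked for pairing by the correlation of deviations from the group means. It was 0.32, 0.18 and 0.298 for ICRF-193 and 0.454, 0.39 and 0.35 for Top2b shRNA, and was not over 0.1 for every pair elsewhere. The highest correlation with another number was -0.094, 0.012 and -0.056 for ICRF-193 and -0.4, 0.398 and 0.314 for Top2b shRNA. Numbers 2 and 3 of Top2b shRNA were thus not clearly told apart. The fits had no block, and the blocked fit is an alternative. It is given beside the result for ICRF-193 and for the difference between topotecan and ICRF-193. Where it changed calls in other comparisons, its counts stand only in the later section on how the results depend on the processing. Alternatives were quantile normalization, leaving out dim probe sets, 1 probe set per gene, a variance trend, a replicate block, a term for the separately normalized shRNA arrays or for the split of the dose series along its first principal component, another dose scale and leaving out each array.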

Additional observations from a re-analysis of the deposited data

Results flagged for a closer look

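In the vehicle group of 1 µM topotecan, array 4 stood far below the other 5 arrays for 7 member probe sets (Dixon's test, 22 groups of member values tested, of which chance marks about 1 in 20). It read 9.64 for Ppfia2 (group median 10.10), 8.72 for Erc2 (9.17), 7.59 for Rims2 (7.94), 8.96 for Pclo (9.60), 7.97 for Rimbp2 (8.68), 8.89 for Unc13a (9.41) and 7.19 for Bsn (7.70). These 7 come from 1 array and are not independent of each other. The same array had the lowest neuron marker mean of its group (9.64) and the highest fibroblast marker mean (7.41), and their part in the low values was not tested.

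The change under 300 nM topotecan differed from that under 3 µM ICRF-193 for 5 probe sets by the test of the difference itself (limma). The difference was -1.83 for Erc2, -1.36 for Ppfia2, -1.16 for each of the 2 Rims1 probe sets and -1.13 for Pclo, with the more negative change under topotecan in each.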

How the results depend on the processing

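Topotecan at 1 µM kept 9 to 11 member probe sets lower under all alternatives run, and Erc2 fell in every fit that left out 1 array under topotecan, irinotecan and ICRF-193. For topotecan at 300 nM the replicate block gave 0 lower and leaving out 1 array 2 to 6. The numbers do not pair these arrays. For ICRF-193, 10 were lower without dim probe sets, 10 with a variance trend and 2 to 10 with 1 array left out. For irinotecan, 5 were lower with the replicate block and 4 to 8 with 1 array left out. For Top1 shRNA, 2 were lower without dim probe sets and 6 with the replicate block. With a term for array 1 against arrays 2 and 3 there were 6, and with 1 array left out 0 to 3. The dose trend gave 8 with a term for the split along the first principal component, which was taken from the data, and 0 on log10(dose + 1). The difference of topotecan 300 nM and ICRF-193 gave 0 with replicate blocks and 3 to 7 with 1 array left out. The pairing block changed no count of Top2b shRNA, which stayed at 0. For ICRF-193 the block gave 8. At 1 µM topotecan the replicate block gave 9, without Bsn (adjusted p = 0.0682). These counts are given without the share of all probe sets in the same fit. The cause of these shifts was not tested.

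For single arrays, the 3 nM array had 0 higher after quantile normalization, 0 against the vehicle array on its side of that split (chosen after seeing the data), and 0 to 1 with 1 vehicle left out. Against the same vehicle array, the first 300 nM array had 2 lower and the 500 nM array 4. With 1 vehicle left out, H2O2 gave 0 to 2 lower and 0 to 7 higher, and paraquat 0 to 8 higher.

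Signs turned for these changes, none of which had passed. In the dose trend, Rimbp2 was 0.0087 and Erc1 10547408 0.014 on log10(dose + 1), and after quantile normalization Erc1 10547408 was 0.0057 and Unc13c 10594973 0.012. With 1 array left out, the range of the change crossed 0 for the following. At 300 nM topotecan it was -0.227 to 0.0297 for 1 Erc1 probe set and -0.0094 to 0.156 for 1 Rims2 probe set. With ICRF-193 it was -0.0299 to 0.0238 for 1 Bsn probe set and -0.0477 to 0.131 for 1 Unc13c probe set. With Top1 shRNA it was -0.687 to 0.129 for Bsn 17521648. With Top2b shRNA it was -0.453 to 0.135 for Bsn 17521648 and -0.278 to 0.235 for Unc13c 17528800. Along the dose series it was -0.0336 to 0.0602 for Rimbp2 10534021, -0.0571 to 0.0043 for Erc1 10547404, -0.0193 to 0.0385 for Erc1 10547408, -0.029 to 0.0141 for Erc1 10547410, -0.0495 to 0.0171 for Unc13a 10579554 and -0.011 to 0.0156 for Bsn 10588874. It was -0.0758 to 0.0037 for Unc13c 10594948, -0.0065 to 0.0505 for Unc13c 10594963, -0.0666 to 0.0272 for Unc13c 10594967, -0.0407 to 0.0057 for Unc13c 10594969 and -0.0264 to 0.0139 for Unc13c 10594973 there. For topotecan 300 nM minus ICRF-193 it was -0.322 to 0.0813 for 1 Unc13a probe set and -0.312 to 0.0322 for 1 Ppfia2 probe set. For Top1 minus Top2b shRNA it was -0.60 to 0.0583 for Ppfia2 17237094, -0.183 to 0.0533 for Erc1 17470323 and -0.538 to 0.278 for Bsn 17521648.

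The arrays per group (1 to 6) limit the precision. In the tests on simulated data 44% of changes of 1 log2 unit were recovered with the arrays of irinotecan and 0% with those of either shRNA. Unc13c and the second Bsn probe set lay near the dim limit. Hours of treatment were given per array only for 24 h topotecan, and cultures and the makeup of cells for none.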
